A study of Mus musculus with 6 samples.

Results

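The genes described here are the 5 NF-kB subunits (*Nfkb1*, *Nfkb2*, *Rel*, *Rela* and *Relb*) and 5 of their inhibitors and feedback genes (*Nfkbia*, *Nfkbib*, *Nfkbie*, *Tnfaip3* and *Bcl3*), taken as the rows of the count table with these symbols, from a list drawn up with earlier results of these data known. They are 10 of the 24499 genes of the count table, and all 10 were among the 13296 genes that passed the filter on low counts. RNA-seq was performed on in vitro germinal center B cells (iGCBs) from cKO mice and control mice, with 3 biological replicates and 3 libraries per group. The labels number the replicates without saying whether each came from 1 mouse. cKO mice carried *Eif3e* fl/fl with Cγ1Cre and the Rosa26-YFP LSL reporter, and eIF3e is a subunit of the translation initiation factor eIF3. The labels call the other genotype control, and its libraries are named cgWT. The study elsewhere describes controls that carry Cγ1Cre and the reporter without the floxed alleles. Cγ1Cre is expressed on transcription of the immunoglobulin γ1 constant region, so deletion begins only after B cells are activated. Naïve splenic B cells of both groups were grown with IL-4 on irradiated 40LB cells, a BALB/c 3T3 fibroblast line expressing CD40L and BAFF, and sorted as YFP+ cells on day 3. The labels give neither the age nor the sex of the mice.

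NF-kB proteins act as dimers of 5 related subunits. In resting cells IkB proteins hold most dimers in the cytoplasm. In the canonical pathway an IKK complex with IKKβ phosphorylates IkB, which is then ubiquitinated and degraded, and dimers of p50 with RelA or c-Rel enter the nucleus. In the non-canonical pathway, driven in B cells by CD40 and the BAFF receptor, NIK and IKKα trigger processing of p100 to p52, the partner of RelB. Several of the inhibitor genes are themselves NF-kB targets and form feedback loops. NF-kB supports the survival and activation of B cells, and c-Rel is known for its role in germinal centers.

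Depth was similar across the 6 libraries, with totals of 39079582 to 45504570 estimated counts, and levels are given as CPM, counts scaled to library size with TMM factors. *Eif3e* stood at 406 ± 16.5 CPM (SD, n = 3) in control and at 158 ± 13.1 CPM (SD, n = 3) in cKO iGCBs, which is −1.36 as a log2 fold change (adjusted p = 6.71e-07, edgeR's quasi-likelihood test with Benjamini-Hochberg adjustment). The count covers the whole gene, the deleted exons included. *Xist*, the RNA of the inactive X chromosome in female cells, had at least 53272 counts in cKO replicate 2 and control replicates 1 and 2 and at most 16 in the other 3 libraries. Values within each of these classes are given for the members whose change they moved beyond the spread between libraries, and for *Tnfaip3*. The 6 B cell markers checked, among them *Ms4a1* and *Pax5*, were present, with a summed level from 4463 to 4619 CPM in cKO libraries and from 4330 to 4686 CPM in those of the control group. The 5 germinal center markers summed to 261.8 to 271.7 CPM in cKO and 324 to 370.4 CPM in control, with *Fas* higher and 3 of the 5 lower in cKO. The 4 plasma cell markers summed to 157 to 176 CPM in cKO and 380.3 to 480.0 CPM in control, where *Jchain*, *Xbp1* and *Prdm1* fell and *Sdc1* rose, from 4.70 to 14.2 CPM (adjusted p = 2.06e-05). The 10 fibroblast markers that could come from feeder cells summed to 104 to 130.2 CPM in cKO and 78.6 to 144 CPM in control, with *Lum* at 0 counts in every library. Although these sums overlapped, *Fn1* rose from 19.2 to 40.3 CPM (adjusted p = 0.000651) and *Col5a1* from 1.77 to 5.39 CPM (adjusted p = 0.000185), and the other 6 tested did not pass. The 6 T cell markers summed to 23.3 to 25.7 CPM in cKO and 36.5 to 39.7 CPM in control, nearly all of it *Lck*, which fell from 38.1 to 24.5 CPM (adjusted p = 0.000135), while *Cd3e* had 0 counts in every library. Of the myeloid markers, *Cd14* and *S100a8* had 0 counts in every library and *Adgre1* rose from 1.18 to 4.61 CPM (adjusted p = 0.00203), and the 6 myeloid markers summed to 4.08 to 6.06 CPM in cKO and 1.22 to 2.45 CPM in control. The part of these differences in the results on the NF-kB genes was not tested. In such bulk libraries, a change in the make-up of the sorted cells and a change in RNA per cell cannot be told apart.

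Promoters are shown first for *Tnfaip3*, the member with the largest change, because its 2 RefSeq transcripts start at different sites. *Tnfaip3* encodes A20, a ubiquitin-editing enzyme that dampens NF-kB signaling. In the sequences below, capitals mark matches to the NF-kB consensus motif, the decameric kB site, searched on both strands. Sequences are from RefSeq on GRCm38.p6, run from 250 bases before to 50 bases after a start, and are written 5′ to 3′ along the gene's strand. The first stretch, chr10:19015361-19015660 on the minus strand, surrounds the upstream start at 19015410, and the second, chr10:19011914-19012213 on the same strand, surrounds the internal start at 19011963.
Tnfaip3 upstream start: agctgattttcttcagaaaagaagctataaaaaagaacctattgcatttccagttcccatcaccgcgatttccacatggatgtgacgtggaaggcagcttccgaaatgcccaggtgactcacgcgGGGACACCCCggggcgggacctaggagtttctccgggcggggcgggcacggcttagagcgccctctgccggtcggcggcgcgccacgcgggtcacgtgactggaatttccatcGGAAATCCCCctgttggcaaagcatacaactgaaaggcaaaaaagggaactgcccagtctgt
Tnfaip3 internal start: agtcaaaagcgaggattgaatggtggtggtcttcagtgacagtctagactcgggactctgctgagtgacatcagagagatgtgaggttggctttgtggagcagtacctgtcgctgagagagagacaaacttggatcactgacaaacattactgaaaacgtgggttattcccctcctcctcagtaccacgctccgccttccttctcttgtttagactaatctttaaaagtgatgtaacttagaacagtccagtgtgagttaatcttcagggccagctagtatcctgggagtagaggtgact
The upstream promoter held 2 matches, from 125 to 116 and from 12 to 3 bases before the start. The internal promoter held 0. In both cases the last 50 bases printed are the first 50 bases of the annotated transcript.

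RefSeq promoters were at hand for 8 of the 10 genes, and *Nfkb1* and *Relb* were not among them. The windows below are those around each match in the other members, with 20 flanking bases where the promoter allowed, shown so that the members can be set side by side. The *Nfkbia* window lies at chr12:55492647-55492696 on the minus strand, the *Nfkbie* window at chr17:45555574-45555623 on the plus strand, the *Rel* window at chr11:23771031-23771081 on the minus strand and the *Bcl3* window at chr7:19822724-19822773 on the minus strand. The *Nfkb2* windows lie on the plus strand at chr19:46304678-46304755, chr19:46305445-46305488 and chr19:46305685-46305734.
Nfkbia: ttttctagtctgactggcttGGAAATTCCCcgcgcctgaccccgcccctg
Nfkbie: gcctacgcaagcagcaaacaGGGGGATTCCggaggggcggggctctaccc
Rel: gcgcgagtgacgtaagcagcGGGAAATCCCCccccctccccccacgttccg
Bcl3: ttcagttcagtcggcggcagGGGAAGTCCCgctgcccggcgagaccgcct
Nfkb2 first start: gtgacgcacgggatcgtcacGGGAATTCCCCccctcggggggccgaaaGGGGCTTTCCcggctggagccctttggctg
Nfkb2 second start, upstream: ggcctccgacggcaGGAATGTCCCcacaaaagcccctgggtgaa
Nfkb2 second start, downstream: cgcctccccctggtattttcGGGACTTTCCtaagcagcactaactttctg
The *Rel* stretch in capitals is 2 matches offset by 1 base, and the first *Nfkb2* window holds 2 separate stretches, of which the upstream one is also 2 overlapping matches. Counted from the promoter's own start, the *Bcl3* match lies from base 2 to base 11, inside the transcribed part. The others but for the last *Nfkb2* window lie before the start. For *Bcl3*, *Rel*, *Nfkbie* and *Nfkb2* no transcript model used here starts at exactly that base. The *Bcl3* model starts at 19822770 and its promoter's start is 19822755. The promoters of *Nfkbib* and *Rela* held no match. In all, 6 of the 8 genes had the motif in a promoter, where 9.55% of the 27025 genes with a promoter did. Counted by promoter, 8 of 11 member promoters held it, against 8.46% of 32851. The last *Nfkb2* window lies in the promoter with its start at 46305695 and also in an overlapping one with its start at 46305930. Its match is thus counted for each of them. A match describes letters and not binding.

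Of the 10 genes, 6 rose in cKO iGCBs, namely *Nfkb1*, *Nfkb2* and *Relb* among the subunits and *Nfkbib*, *Nfkbie* and *Tnfaip3* among the inhibitors. No gene of the 10 fell. The increases ran from 1.33-fold for *Nfkbib* to 2.17-fold for *Tnfaip3*, and 3 of them, those of *Nfkb1*, *Nfkbie* and *Tnfaip3*, were over 1.5-fold. Among all genes tested, 24.1% were higher and 24.5% lower in cKO at an adjusted p under 0.05, and 10.4% were higher and 10.6% lower with a fold over 1.5 as well. Counted by unadjusted p under 0.05, 7 members were higher and 1, *Bcl3*, was lower, and DESeq2 called 7 higher and 0 lower. The median log2 fold change of the 10 genes was 0.41, and that of all genes tested was −0.004. The 3 libraries of each group did not overlap for 7 of the 10 genes, and for 58.7% of all genes tested. Of the 4 genes with a promoter in the RefSeq table that rose, 3 had the motif shown above, and of the 4 that did not pass the test, 3 had it.

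**Figure D1:**
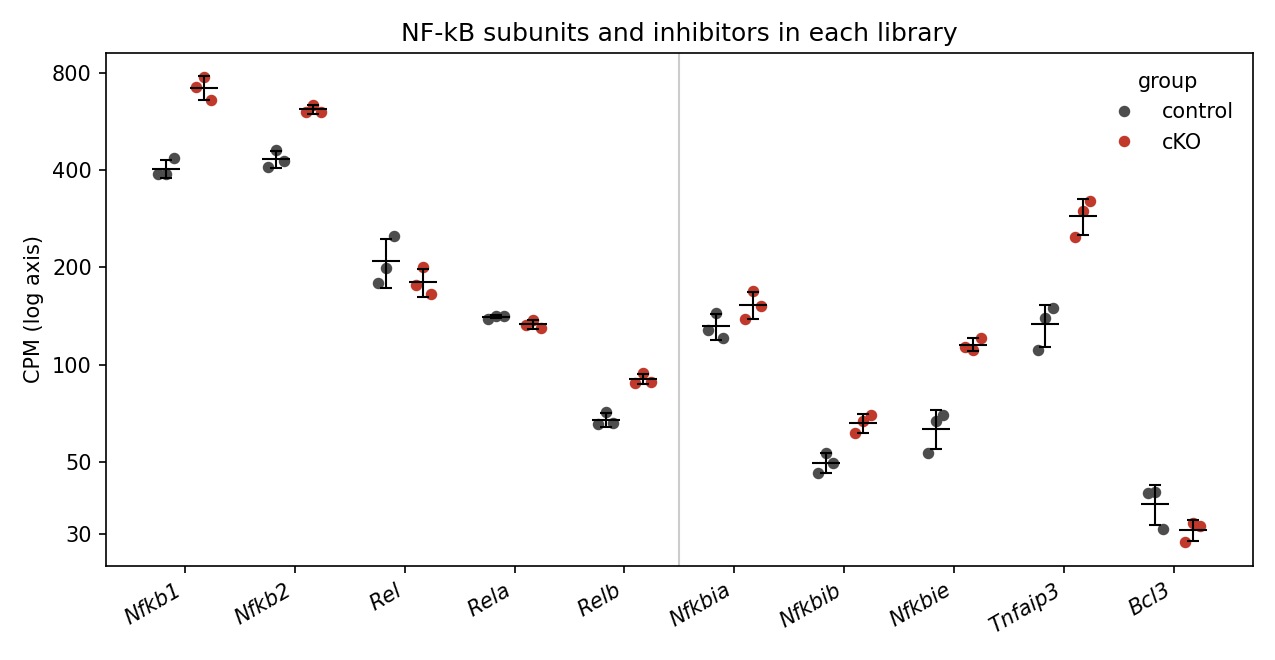
CPM of each member (log axis) in the 3 control (grey) and 3 cKO (red) libraries, with mean and SD in black and the subunits left of the line. The 3 cKO points of *Nfkb1*, *Nfkb2*, *Relb*, *Nfkbib*, *Nfkbie* and *Tnfaip3* all lie above the control points, while those of *Rel*, *Nfkbia* and *Bcl3* overlap them.

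*Nfkb1* encodes p105, which is processed to p50, the DNA-binding partner of RelA and c-Rel, and which acts as an inhibitor before processing. In GRCm38 it spans 135584655 to 135691547 of chromosome 3, minus strand, and the other positions given are of the same build. Its level was 722, 777 and 656 CPM in cKO replicates 1, 2 and 3 and 389.5, 388 and 434 CPM in control replicates 1, 2 and 3. Every cKO library was above every control library. *Nfkb1* rose by 0.83 on the log2 scale (95% interval 0.68 to 0.99, standard error 0.0701, adjusted p = 9.64e-06). Within the libraries with *Xist* counts the difference was 1.00 on the log2 scale, and within those without it was 0.67.

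*Nfkb2*, on chromosome 19 from 46304320 to 46312385 on the plus strand, encodes p100, the precursor of p52 and an inhibitor of RelB. It was at 605, 637 and 605 CPM in the cKO and at 409, 460.2 and 427.5 CPM in the control libraries. The groups did not overlap, and the spread between cKO libraries was small, with an SD of 18.8 CPM. The log2 fold change was 0.51 (95% interval 0.39 to 0.63, adjusted p = 4.37e-05), a 1.42-fold increase. Exons of *Nfkb2* overlap those of *Psd* on the other strand, whose level was 115 CPM in control and 141 CPM in cKO iGCBs, and the strand setting of the counting is not given in the sources used here.

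*Relb*, whose product pairs with p52 in the non-canonical pathway, lies on chromosome 7 from 19606217 to 19629438 on the minus strand. Its level was 88.0, 94.3 and 88.6 CPM in the cKO and 65.4, 71.7 and 66.0 CPM in the control libraries. All cKO values were above all control values. *Relb* rose by a log2 fold change of 0.42 (95% interval 0.28 to 0.55, adjusted p = 0.000249).

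The subunits with a strong transactivation domain in the canonical pathway did not pass the test. *Rela*, on chromosome 19 from 5637483 to 5648130 on the plus strand, was measured at 132, 138 and 129.7 CPM in cKO and at 139, 142 and 142 CPM in control. The cKO values were all below the control values, but the gap was small, with a log2 fold change of −0.08 (95% interval −0.19 to 0.03, adjusted p = 0.209). It was −0.03 within the libraries with *Xist* counts and −0.11 within those without. *Rel*, which encodes c-Rel and lies on chromosome 11 from 23736847 to 23770970 on the minus strand, was at 176, 199.9 and 165 CPM in cKO and at 179, 199 and 249 CPM in control. The groups overlapped, and control replicate 3 was the highest of the 6 libraries. The log2 fold change of *Rel* was −0.21 (95% interval −0.47 to 0.04, adjusted p = 0.145). Within the libraries with *Xist* counts *Rel* differed by 0.08 and within those without by −0.55 on the log2 scale. *Rel* passed the test, with a log2 fold change of −0.32 (adjusted p = 0.0398), when control replicate 1 was left out, and had a log2 fold change of −0.07 (adjusted p = 0.553) when control replicate 3 was left out.

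**Figure D2:**
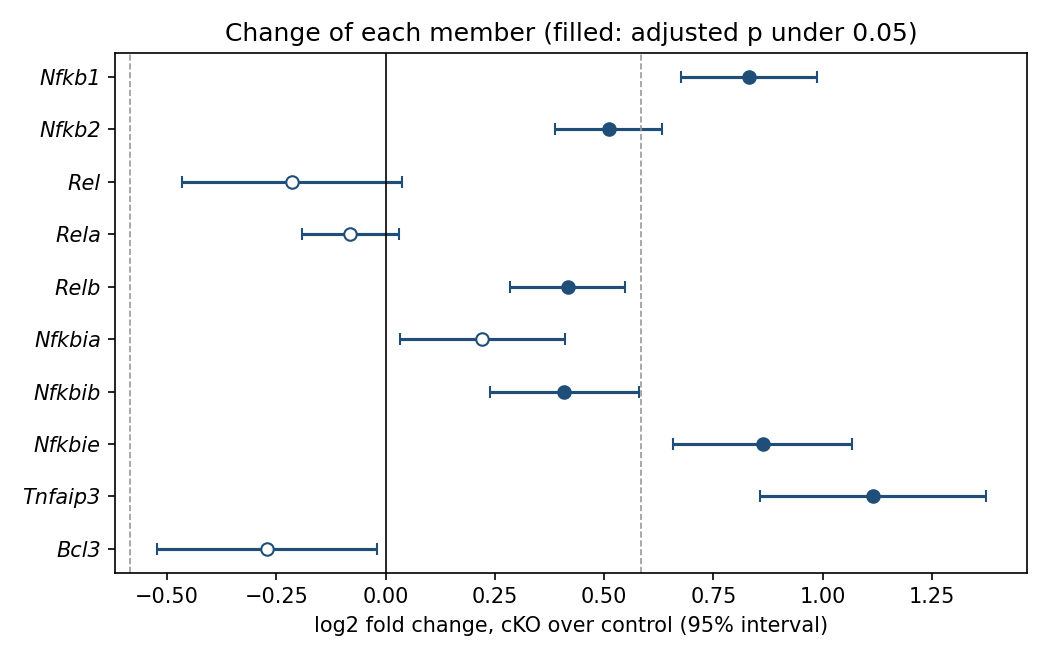
Log2 fold change of each member, cKO over control, with its 95% interval from edgeR's quasi-likelihood fit. Filled points passed at an adjusted p under 0.05, and dashed lines mark 1.5-fold. The intervals of *Nfkb1*, *Nfkbie* and *Tnfaip3* lie wholly above the dashed line, and those of *Rel* and *Rela* include 0.

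Among the inhibitors, *Tnfaip3* changed most. The gene lies on chromosome 10 from 19000910 to 19015657 on the minus strand. It was at 248, 298 and 319.7 CPM in the cKO and at 111, 139 and 149.9 CPM in the control libraries, from 11248, 13415 and 13564 estimated counts in cKO and 5003, 5463 and 6175 in control. Even the lowest cKO library, replicate 1, was above the highest control library, replicate 3. The log2 fold change was 1.11 (95% interval 0.86 to 1.37, standard error 0.116, adjusted p = 3.48e-05), which exceeded that of 90.5% of the genes tested in absolute size. It was 1.26 within the libraries with *Xist* counts and 0.91 within those without.

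*Nfkbie* encodes IkBε, an inhibitor of RelA and c-Rel dimers that is itself induced by NF-kB, and lies on chromosome 17 from 45555703 to 45563169 on the plus strand. Its level was 114, 111 and 121 CPM in cKO and 53.5, 67.0 and 69.9 CPM in control. The groups did not overlap, and control replicate 1 was the lowest library. The log2 fold change was 0.86 (95% interval 0.66 to 1.07, adjusted p = 4.1e-05). *Nfkbib*, on chromosome 7 from 28758251 to 28767512 on the minus strand, encodes IkBβ, which holds the same kind of dimers. It was at 61.4, 66.9 and 70.1 CPM in cKO and at 46.3, 53.2 and 49.8 CPM in control. The increase of *Nfkbib*, 0.41 on the log2 scale (95% interval 0.24 to 0.58, adjusted p = 0.00141), was larger than the spread between libraries. Exons of *Nfkbib* overlap those of *Sirt2* on the other strand, and the level of *Sirt2* was 63.9 CPM in control and 47.3 CPM in cKO iGCBs.

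*Nfkbia* and *Bcl3* did not pass the test. *Nfkbia*, on chromosome 12 from 55489410 to 55492647 on the minus strand, encodes IkBα, the inhibitor degraded and resynthesized within a canonical response. It was at 138, 169 and 152 CPM in cKO and at 128, 145 and 121 CPM in control. The groups overlapped, with cKO replicate 1 below control replicate 2. The log2 fold change was 0.22 (95% interval 0.03 to 0.41, adjusted p = 0.0526), and it passed the threshold with DESeq2 (adjusted p = 0.0163), with the *Xist* level as a covariate (adjusted p = 0.00798) and under several other settings. *Bcl3* encodes a nuclear IkB protein that binds p50 and p52 homodimers and acts as a coactivator, and lies on chromosome 7 from 19808462 to 19822770 on the minus strand. Its level was 28.3, 32.5 and 31.8 CPM in cKO and 40.1, 40.4 and 31.1 CPM in control. Control replicate 3 lay among the cKO libraries, and the log2 fold change was −0.27 (95% interval −0.52 to −0.02, adjusted p = 0.0709). Without control replicate 3 it was −0.38 (adjusted p = 0.0075). Within the libraries with *Xist* counts *Bcl3* differed by −0.31, and within those without by −0.05 on the log2 scale. The other nuclear IkB genes listed, *Nfkbid* and *Nfkbiz*, had log2 fold changes of −0.38 (adjusted p = 0.0575) and 0.19 (adjusted p = 0.245), and the groups overlapped for both. Of these 2 genes, 1 was lower at an unadjusted p under 0.05, and DESeq2 called neither. Of the pair, 1 was called lower with the replicate number as a block, with the *Xist* level as a covariate, with at least 10 counts in every sample, and without cKO replicate 3 or control replicate 1.

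Levels were compared between genes as CPM per kilobase of transcript. In control iGCBs *Nfkb2* was highest, at 143 ± 8.49 CPM per kb, followed by *Nfkb1* at 98.1 ± 6.38, *Nfkbia* at 83.2 ± 7.72, *Rela* at 51.9 ± 0.669 and *Nfkbib* at 38.8 ± 2.75 CPM per kb (SD, n = 3 each). These 5 did not overlap with their neighbours in the order. *Relb* at 30.8 ± 1.57, *Tnfaip3* at 30.2 ± 4.57, *Rel* at 28.0 ± 4.87 and *Nfkbie* at 26.3 ± 3.61 CPM per kb followed, each overlapping the next, and *Bcl3* was lowest at 20.1 ± 2.86 CPM per kb. In cKO iGCBs *Nfkb2* (204 ± 6.76 CPM per kb), *Nfkb1* (175 ± 14.7) and *Nfkbia* (97.0 ± 9.59) kept the first 3 places. *Tnfaip3*, at 65.5 ± 8.31 CPM per kb, stood in the fourth place, and in the seventh in control. *Nfkbib* (51.8 ± 3.85), *Rela* (49.04 ± 1.49) and *Nfkbie* (47.8 ± 2.09 CPM per kb) followed with overlapping ranges, then *Relb* (41.1 ± 1.59), *Rel* (24.1 ± 2.40) and *Bcl3* (16.7 ± 1.23 CPM per kb). *Rel* and *Rela* thus stood at 24.1 and 49.04 CPM per kb beside 175 for *Nfkb1* in cKO, and at 28.0 and 51.9 beside 98.1 in control.

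The make-up of the subunit mRNAs shifted toward *Nfkb1*. Its share of the summed level of the 5 subunits was 35.9, 36.2 and 34.0% in the cKO and 28.3, 26.3 and 29.1% in the control libraries, with no overlap. The share of *Rela* was 9.97, 9.74 and 10.2% in cKO and 15.3, 14.6 and 14.4% in control. The share of *Rel* was 4.82, 5.14 and 4.71% in cKO and 7.15, 7.46 and 9.2% in control. For these 3 genes the groups did not overlap, and the two-sided exact permutation test gave p = 0.1, the smallest that 3 libraries against 3 allow, over 5 shares that sum to a fixed total and are not independent. The share of *Nfkb2* was 41.4 ± 0.985% in cKO and 40.7 ± 1.74% in control, and that of *Relb* 8.34 ± 0.216% and 8.75 ± 0.434% (SD, n = 3 each), with overlapping groups (exact permutation p = 0.5 and 0.2). The genes for the precursors p105 and p100 together made up 76.5 to 77.0% in cKO and 68.1 to 68.8% in control. The ratio of *Nfkb1* to *Rela*, per length, was 3.34 to 3.72 in cKO and 1.8 to 2.02 in control.

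**Figure D3:**
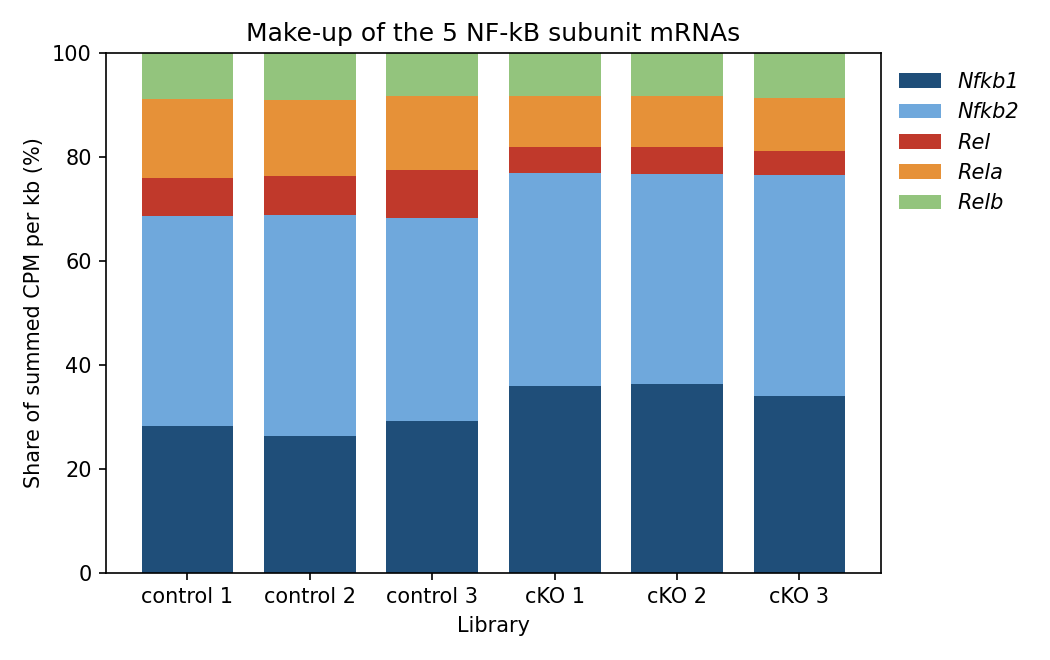
Stacked bars give the share of each subunit in the summed CPM per kb of the 5 subunits, in percent, 1 bar per library. The dark blue *Nfkb1* section takes 34.0 to 36.2% in the cKO libraries and 26.3 to 29.1% in the control libraries, and the *Rel* and *Rela* sections are smaller in cKO.

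The summed level of the IkBα, IkBβ and IkBε genes per summed subunit level was 0.374 to 0.431 in cKO and 0.398 to 0.45 in control, so the groups overlapped. Within that sum, *Nfkbie* took 22.4 to 25.8% in cKO and 15.9 to 20% in control, without overlap. *Nfkbia* took 47.8 to 52.1% in cKO and 53.0 to 58.3% in control, also without overlap.

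The transcript table separates RefSeq transcripts, of which 16 belong to the 10 genes and all 16 were tested. Of these, 7 rose in cKO and 0 fell, where 12.4% of the 18040 transcripts tested were higher and 12.7% lower. At an unadjusted p under 0.05 the counts were also 7 and 0. Those that rose were the only transcript of *Nfkb1*, both of *Tnfaip3* and 1 each of *Nfkb2*, *Relb*, *Nfkbib* and *Nfkbie*. The *Nfkbib* transcript, NM_001306222, lost its call without cKO replicate 2, cKO replicate 3, control replicate 1 or control replicate 3 (adjusted p = 0.0531 to 0.0656). Estimates for transcripts that share most exons depend on how the reads were divided between them.

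The *Tnfaip3* transcript from the internal start, NM_001166402, was at 51.2, 57.0 and 27.7 CPM in the cKO and at 4.78, 6.43 and 9.48 CPM in the control libraries. The groups did not overlap, although cKO replicate 3 was well below the other cKO libraries. It rose by 2.71 on the log2 scale (95% interval 1.78 to 3.65, standard error 0.381, adjusted p = 0.00509). The transcript from the upstream start, NM_009397, was at 196.5, 240.2 and 293 CPM in cKO and at 106, 132 and 140.3 CPM in control. It too rose in every cKO library relative to every control, by 0.94 on the log2 scale (95% interval 0.51 to 1.37, adjusted p = 0.0127). NM_001166402 made up 20.7, 19.2 and 8.63% of the gene's estimated counts in cKO and 4.3, 4.63 and 6.33% in control. This change of transcript use did not pass the test over 7646 transcripts (edgeR's diffSpliceDGE, unadjusted p = 0.00202, adjusted p = 0.176). None of the 11 member transcripts tested for use passed, 1 had an unadjusted p under 0.05, and 0.615% of all transcripts tested passed.

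**Figure D4:**
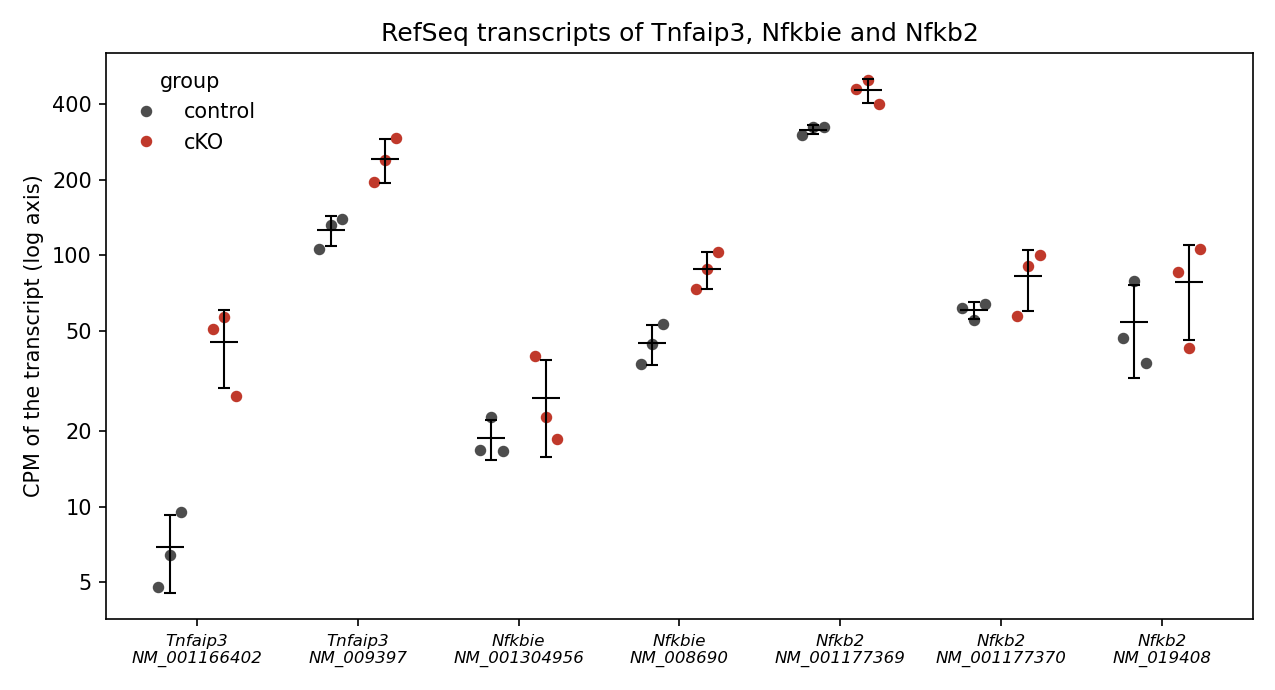
CPM (log axis) of the RefSeq transcripts of *Tnfaip3*, *Nfkbie* and *Nfkb2* in the 3 control (grey) and 3 cKO (red) libraries, with mean and SD in black. The internal-start transcript of *Tnfaip3*, NM_001166402, lies between 4.78 and 9.48 CPM in control and between 27.7 and 57.0 CPM in cKO, and the less abundant *Nfkbie* and *Nfkb2* transcripts overlap between groups.

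For *Nfkbie*, the transcript NM_008690 was at 73.7, 88.3 and 103 CPM in cKO and 36.8, 44.3 and 53.1 CPM in control, without overlap. Its log2 fold change was 0.98 (adjusted p = 0.0118), while that of NM_001304956 was 0.53 (adjusted p = 0.294) with overlapping groups. The value of NM_001304956 ranged from 0.14 without cKO replicate 1 to 0.74 without cKO replicate 3, and it did not pass in any of the fits with 1 library left out. For *Nfkb2*, the main transcript NM_001177369 was at 461, 502 and 399.9 CPM in cKO and 301, 325 and 325 CPM in control. It rose by 0.52 on the log2 scale (adjusted p = 0.0101). The other *Nfkb2* transcripts, NM_001177370 and NM_019408, had log2 fold changes of 0.45 and 0.52 with adjusted p of 0.191 and 0.436, and their libraries overlapped. With 1 library left out, NM_001177370 ranged from 0.29 without cKO replicate 3 to 0.66 without cKO replicate 1, where it passed (adjusted p = 0.014), and NM_019408 from 0.24 without cKO replicate 3 to 0.89 without control replicate 2.

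The other genes of the pathway were taken from lists of 54 genes, all of which were tested. Of these, 16 were higher and 20 lower in cKO, where 24.1% of all genes tested were higher and 24.5% lower. Their median log2 fold change was −0.11, beside −0.004 for all genes tested and 0.41 for the 10 members. Among the IKK kinases and their activators, 1 of 8 was higher and 5 were lower. Leaving out cKO replicate 2 gave 0 higher and 3 lower, and leaving out cKO replicate 3 or control replicate 1 gave 3 lower. *Tab2* and *Tab1*, adaptors of the kinase TAK1, fell by 0.56 and 0.55 on the log2 scale (adjusted p = 8.62e-05 and 0.00101). *Ikbkb*, which encodes IKKβ, fell from 131 ± 4.23 to 94.0 ± 5.33 CPM (adjusted p = 9.52e-05). *Tab3* fell by 0.22 (adjusted p = 0.0393). The single gene of this list that rose and the remaining one that fell are named after their values were seen, *Map3k7*, which encodes TAK1, at 0.21 (adjusted p = 0.0106), and *Ikbkg*, which encodes NEMO, at −0.21 (adjusted p = 0.0230).

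The CBM complex carries signals from the B cell receptor to IKK. *Bcl10*, one of its genes, fell by 0.38 on the log2 scale (adjusted p = 0.000413). *Malt1*, which did not pass and is named outside the rule for list genes, had a log2 fold change of −0.13 (adjusted p = 0.211). Not every gene of this list is reported here. Among 9 receptors and adaptors of the CD40 and BAFF receptor pathways, 4 rose and 5 fell. The largest changes were those of *Traf2* (−0.71, adjusted p = 6.59e-05), *Birc2*, which encodes cIAP1 (0.65, adjusted p = 3.59e-05), *Traf5* (−0.62, adjusted p = 0.000308) and *Tnfrsf13c*, the BAFF receptor (−0.60, adjusted p = 0.000116), all on the log2 scale. Named after their values were seen, the other genes that rose were *Traf1*, *Cd40* and *Traf3*, and the others that fell were *Traf6* and *Birc3*, with log2 fold changes between −0.33 and 0.38. *Traf3* was near the threshold (adjusted p = 0.0468) and its groups overlapped. The count of genes higher in this list was 3 with the replicate number as a block, with no filter on low counts, and without cKO replicate 2, cKO replicate 3, control replicate 1 or control replicate 3. Of 8 deubiquitinases and A20 partners, 3 rose and 2 fell, where 24.1% of all genes tested were higher and 24.5% lower. *Tnip1*, which encodes the A20-binding protein ABIN1, fell from 76.8 ± 1.48 to 49.8 ± 0.681 CPM (log2 fold change −0.63, adjusted p = 1.36e-05), while *Tnfaip3* itself rose. *Otulin*, a deubiquitinase of linear chains, and *Itch*, an A20 partner ligase, rose by 0.47 and 0.42 on the log2 scale (adjusted p = 0.000244 and 0.000127), *Tax1bp1*, an A20 adaptor, fell by 0.33 (adjusted p = 0.00176), and the remaining gene that rose, *Otud7b*, is named after its value was seen (0.25, adjusted p = 0.00333). Of 7 ubiquitin ligase genes, *Cul1* and *Rnf31*, the latter encoding HOIP, rose by 0.57 and 0.31 (adjusted p = 2.13e-05 and 0.0180), and *Sharpin* fell by 0.39 on the log2 scale (adjusted p = 0.000248). Only 1 of the 7 was called higher without control replicate 1 or control replicate 2.

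Of 17 genes known as NF-kB targets in B cells, 6 rose and 5 fell, to be read against the same shares of all genes, and their median log2 fold change was −0.05. The largest increases were those of *Cd80*, a costimulatory ligand, *Bcl2l1*, which encodes the survival protein Bcl-xL, *Ccl22*, a chemokine, and *Cflar*, an inhibitor of caspase-8. *Cd80* rose by 2.35 on the log2 scale (adjusted p = 3.6e-07). *Bcl2l1* was at 137, 159.9 and 143 CPM in cKO and 31.3, 35.1 and 35.3 CPM in control, without overlap. *Bcl2l1* rose by 2.12 on the log2 scale (standard error 0.076, adjusted p = 2.67e-07), and those of *Ccl22* and *Cflar* were 1.58 (adjusted p = 1.2e-05) and 0.90 (adjusted p = 2.93e-05). The other targets that rose, named after their values were seen, were *Icam1* (0.79, adjusted p = 2.73e-06) and *Irf4* (0.42, adjusted p = 0.00282). The 5 that fell, likewise named, were *Ccr7*, *Tnf*, *Gadd45b*, *Ltb* and *Lta*, with log2 fold changes from −0.89 to −0.35. The *Bcl2a1* copies *Bcl2a1a*, *Bcl2a1b* and *Bcl2a1d* are near-identical, so the division of reads between them is uncertain. Their log2 fold changes lay between −0.09 and −0.02 and did not pass the test.

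**Figure D5:**
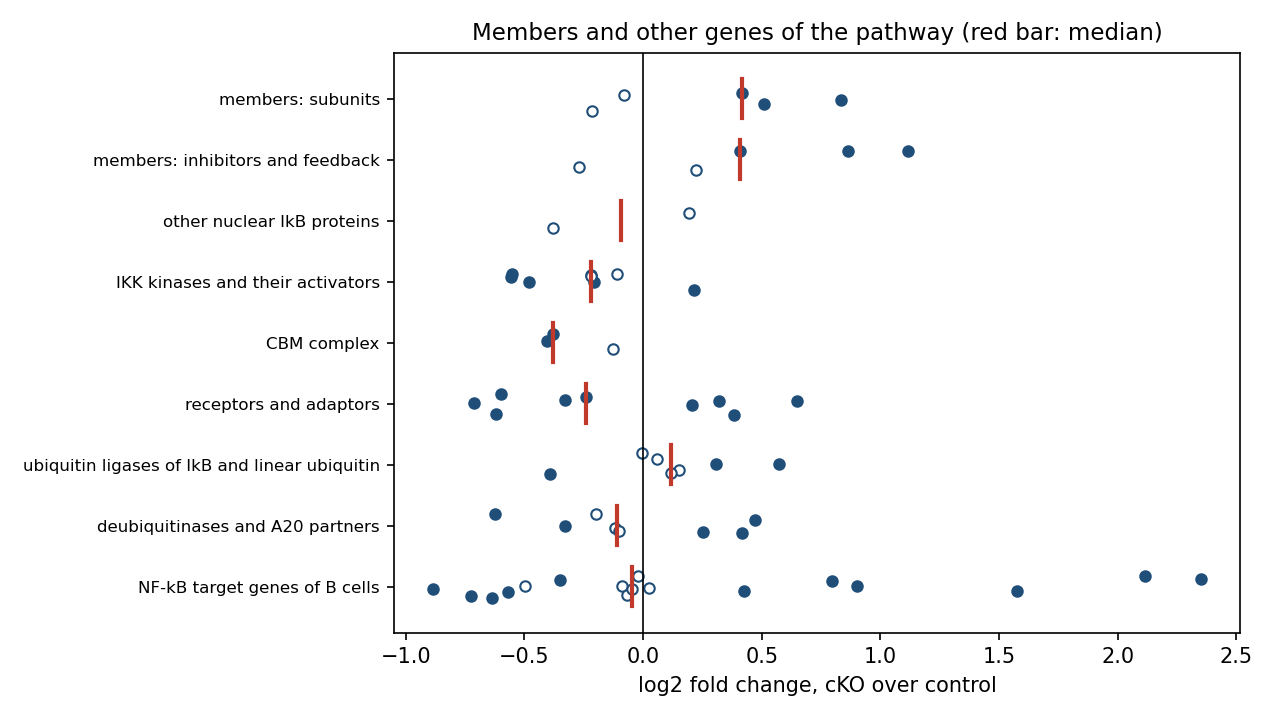
Log2 fold change, cKO over control, of each gene of the member lists and of the other pathway lists, 1 point per gene. Filled points passed at an adjusted p under 0.05 and red bars are medians, which are 0.42 and 0.41 for the member lists and between −0.38 and 0.12 for the other lists.

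The tested genes with at least 10 CPM whose log2 CPM followed *Tnfaip3* most closely over the 6 libraries were *Timeless*, *Trub1* and *Slc25a22*, with Pearson's r of 0.999, 0.998 and 0.998. They are the top 3 of 8512 candidates, of which 720 had an r over 0.95. All 6 points share the split into cKO and control, so the correlation describes these libraries only. *Timeless* had a log2 fold change of 0.49, *Trub1* of 0.76 and *Slc25a22* of 1.08.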

How the data were processed

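Reads were trimmed and aligned to mm10 with HISAT2 by the authors, and StringTie with its prepDE script gave tables of genes and of RefSeq transcripts. The deposited estimated counts were whole numbers without normalization. Tool versions and the strand setting are not given in the sources used here. prepDE converts coverage to counts, so totals are not numbers of fragments. At these totals 3 counts correspond to 0.0659 to 0.0768 CPM, which covers counting error only.

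Samples were grouped by their labels, and all 6 libraries were used. The labels date the sampling to day 3, while the culture protocol names a longer culture. Genes were kept by filterByExpr (minimum count 10), scaled by TMM and tested, cKO against control without covariates, with edgeR 4.0.16's quasi-likelihood test in R 4.3.3 and Benjamini-Hochberg adjustment over all genes tested. Passing meant an adjusted p under 0.05, with a fold over 1.5 as a stricter rule. Transcript use was tested with diffSpliceDGE. Levels per kb divide transcript counts by transcript length. Gene positions are from GENCODE M21 on GRCm38, by symbol. Of 36026 transcripts, 34674 were matched to a gene. The fits were tested on simulated data. The limits first set there were missed, by edgeR for genes of low counts and by DESeq2 for false calls, and were then reset to edgeR on the gene table, with recovery judged at higher counts. On simulated transcripts edgeR recovered few of the changed ones, so a transcript that did not pass may still differ. Alternatives were DESeq2 1.42.0, its size factors, total counts, other filters, a test against 1.5-fold, a replicate block, *Xist* as a covariate and each library left out. Values within each *Xist* class were added after seeing the data. The members and lists were chosen with earlier results of these data known. Named list genes were at most 4 per list, those of largest change among genes that passed at 10 CPM or more, or of highest level where none passed. Exceptions were *Malt1*, the *Bcl2a1* copies and the genes marked as named after their values were seen. The *Tnfaip3*-like genes were the 3 of highest r. Some listed genes are not reported here by name.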

Additional observations from a re-analysis of the deposited data

How the results depend on the processing

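The count of 6 members higher in cKO was 6 or 7 under every alternative but a test that the change exceeds 1.5-fold, which left 3, and the seventh was *Nfkbia*. The count over 1.5-fold was 3 under all alternatives run. With each library left out in turn, 6 to 7 members were higher and 0 to 1 lower, where the lower one was *Rel* without control replicate 1 and *Bcl3* without control replicate 3. Member transcripts higher numbered 6 to 8 and lower 0 to 1 in those fits. The pathway lists gave 14 to 16 higher and 17 to 19 lower genes with 1 library left out, and the test against 1.5-fold left 5 higher and 1 lower.

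The labels do not say whether the replicate numbers pair the mice. The study used paired t tests for other measurements of control and cKO iGCBs. Deviations from the group mean correlated at 0.003, 0.11 and 0.196 for same-numbered libraries. For differently numbered ones the correlations ran from −0.262 to 0.187. These values are weak and cannot decide whether the libraries are paired. With the number as a block, 7 members were higher and 0 lower, *Nfkbia* had an adjusted p of 0.0243, and 15 pathway genes were higher and 20 lower. The block left 7 member transcripts higher and moved the count over all transcripts from 4526 to 2678.

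Within the libraries with *Xist* counts, the differences in subunit share were 8.96 points for *Nfkb1*, −0.84 for *Nfkb2*, −2.16 for *Rel*, −5.2 for *Rela* and −0.76 for *Relb*. Within those without, they were 5.91, 2.72, −4.44, −4.32 and 0.13 points. The signs for *Nfkb2* and *Relb* thus differed between the classes, each with 1 library in 1 of the groups. *Nfkbia* also passed with DESeq2's size factors (adjusted p = 0.0425), with at least 10 counts in every sample (0.0380), and without cKO replicate 1 (0.0243) or control replicate 2 (0.0202). The minor transcript of *Relb*, NM_009046, had log2 fold changes from −1.15 to 0.14 with 1 library left out, positive without cKO replicate 2 (0.14), cKO replicate 3 (0.03) or control replicate 1 (0.06). The minor transcript of *Nfkbib*, NM_010908, ranged from −0.035 to 0.32, negative without cKO replicate 1 (−0.01) or cKO replicate 2 (−0.035). The cause of these changes was not tested. Nothing here separates RNA amounts from protein levels or from NF-kB activity.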
